A study of Caenorhabditis elegans with 8 samples.

Results

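The genes described here are the cytochrome P450 genes and the UDP-glucuronosyltransferase genes of *C. elegans*, taken as every gene whose name starts with *cyp-* or *ugt-* in the annotation of the WBcel235 assembly. There were 141 of them among the 46449 gene names counted in each library, 74 *cyp* and 67 *ugt* genes, and all were protein-coding. The mRNA of whole hermaphrodites at the L4 larval stage was sequenced in 8 libraries, with 2 biological replicates in each of 4 groups. Wild-type (N2) and *mut-16(pk710)* animals were each grown at 20ºC and at 25ºC, and were collected as L4s after 56 h at 20ºC and after 39 h at 25ºC. *mut-16* encodes the scaffold of the *mutator* complex, which amplifies small RNAs in the germline. The mutant is a single strain carrying this allele throughout the animal, so an effect of *mut-16* cannot be told apart from one of another difference between the strains. Temperature cannot be told apart from time to harvest. Because whole animals were sequenced, fewer cells of a type and less RNA per cell cannot be told apart either.

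P450 enzymes are heme monooxygenases that add oxygen to small molecules, using electrons passed on by a P450 reductase, EMB-8 in the worm, and by cytochrome b5. UDP-glucuronosyltransferases then join a sugar to such molecules, which makes them more soluble and easier to excrete. In *C. elegans* many members of both families are expressed in the intestine, where they act on foreign compounds, and some P450s instead make or break down the animal's own lipids and hormones. The best known P450 of the hormone kind, DAF-9, makes dafachronic acids, but its gene does not carry a *cyp* name and is not counted among the members.

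Library totals lay between 9914054 and 13227929 expected counts. The *cyp* genes held 0.053% to 0.072% of a library's counts and the *ugt* genes 0.121% to 0.174%. The mutated gene itself, *mut-16*, had 229 to 340 counts in the wild-type libraries and 55 to 105 in the mutant ones, so the levels split as the genotype labels do. Levels below are CPM values, counts relative to the size of the library, after TMM scaling, a scaling between libraries that sets the typical gene to no change. Of the 141 members, 104 passed the filter on low counts and were tested, 52 of each family. The other 37, of which 22 were *cyp* genes, never exceeded 19 counts in a library, and 1 of them, *cyp-35B3*, had no count anywhere. Among those 37 was *cyp-13A7*, a P450 known to be induced by rifampicin, with a CPM of 0.0888 to 0.707 across the libraries. Of the tested members, 33 had a fractional count in at least 1 library. These are genes whose reads were split with a similar transcript, and their values are less certain.

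The summed level of each family moved little between the groups. The 74 *cyp* genes summed to 669.9 ± 2.2 CPM (SD, n = 2) at 20ºC and 655.1 ± 54.7 at 25ºC in wild-type, and to 527.7 ± 8.1 and 549.3 ± 9.2 CPM in *mut-16*. Both pairs of *mut-16* libraries were below all wild-type libraries. The log2 ratio of *mut-16* to wild-type was −0.34 at 20ºC and −0.25 at 25ºC, each with an exact permutation p of 0.333, two-sided, which is the smallest p that 2 libraries against 2 allow. The 67 *ugt* genes summed to 1623 ± 69.6, 1374.3 ± 47.9, 1461.7 ± 89.6 and 1546.7 ± 43.4 CPM in the same order. Wild-type at 25ºC thus had the lowest *ugt* mean, although its libraries overlapped those of *mut-16* at 20ºC, and stood at a log2 ratio of −0.24 to wild-type at 20ºC with the exact p again at 0.333. Single genes weighed on both sums. Without *ugt-62*, the *ugt* sums were 1341.8 and 1281 CPM in wild-type at 25ºC and 1297.9 and 1198.3 in *mut-16* at 20ºC. The lowest mean was then that of *mut-16* at 20ºC. Without *cyp-37B1*, the *cyp* sums in wild-type were 669.8 and 667.4 CPM at 20ºC and 562.8 and 631.4 at 25ºC, with no overlap. Those in *mut-16* were 531.8 and 521.1 CPM at 20ºC and 541.5 and 531.8 at 25ºC. The gap between the genotypes at 25ºC was then smaller than with *cyp-37B1*, though their libraries still did not overlap. The sums hide opposite changes of single genes, which the following comparisons describe.

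**Figure D1:**
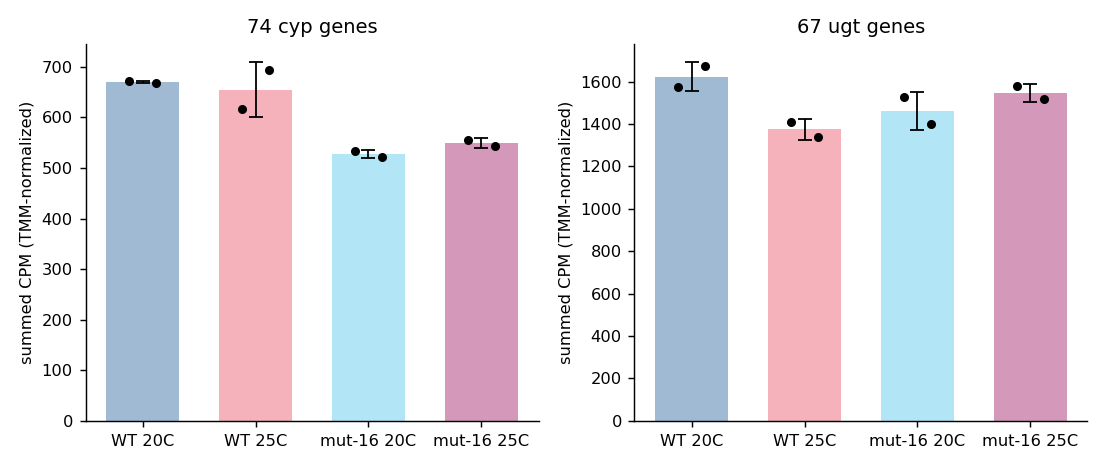
Summed TMM-normalized CPM of the 74 *cyp* genes (left) and the 67 *ugt* genes (right) in the 4 groups, with each library as a point, the group mean as a bar and the SD (n = 2) as the error bar. The *cyp* sum fell from 669.9 in wild-type to 527.7 in *mut-16* at 20ºC, and the lowest *ugt* sum was 1374.3, in wild-type at 25ºC. Without *ugt-62*, the lowest *ugt* mean was that of *mut-16* at 20ºC.

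Compared per kilobase of exon, so that genes of different length can be set side by side, the *ugt* family held the higher levels. The mean over the 4 groups was 84.2 CPM per kb for *ugt-62*, 66.5 for *ugt-23*, 52.8 for *ugt-47*, 49.4 for *ugt-17* and 48.3 for *ugt-22*. The highest *cyp* levels per kb were 41.2 for *cyp-25A2*, 36.7 for *cyp-35A2*, 30.7 for *cyp-37A1*, 23.9 for *cyp-29A2* and 14.7 for *cyp-42A1*. Of the 141 members, 83 lie on chromosome V, 41 *cyp* and 42 *ugt* genes. Members also stand next to each other, and 60 of them fall in 10 runs of at least 3 members with gaps of at most 20 kb.

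The first comparison asked what growth at 25ºC does to these genes in wild-type animals. Heat below means 25ºC against 20ºC. Genes that changed over 2-fold and had an adjusted p no larger than 0.05 were called (edgeR quasi-likelihood test, Benjamini-Hochberg adjustment over all 13972 genes tested). At that threshold 10 of the 104 members rose, 4 *cyp* and 6 *ugt* genes, which is 9.62% of them against 5.3% of all genes tested. A further 16 fell, 8 of each family, which is 15.4% against 4.19% of all genes. With no limit on the fold change, 21 rose (20.2%, all genes 11.1%) and 31 fell (29.8%, all genes 9.62%). The median log2 fold change was −0.25 for *cyp* and −0.05 for *ugt* genes, and 0 for all genes tested. Scaling by library total in place of TMM lowered the median of all genes by 0.25 on the log2 scale and turned the counts into 7 up and 28 down, so the share of called members that rose was 38.5% with TMM and 20% with totals.

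**Figure D2:**
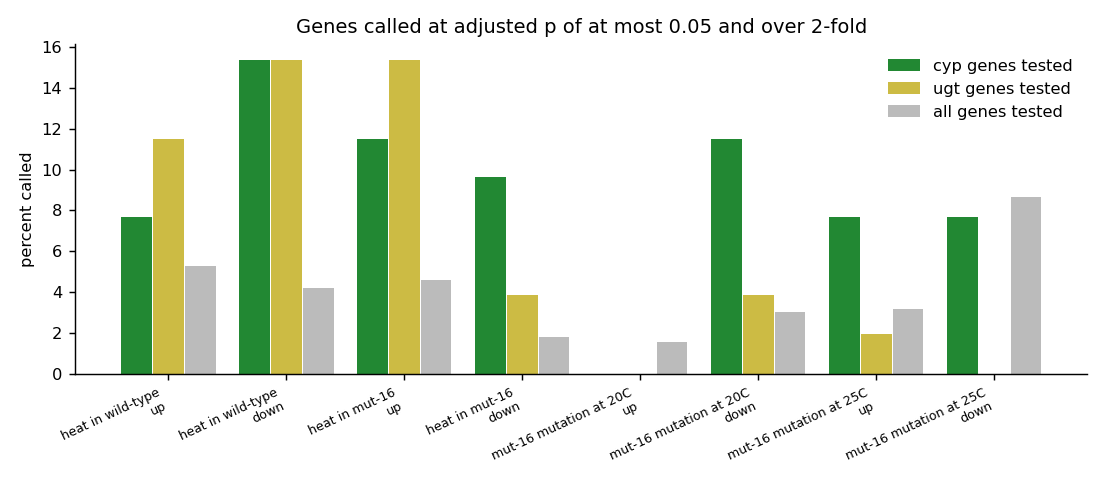
Percent of genes past the threshold of over 2-fold and an adjusted p up to 0.05, in each comparison and direction, for the tested *cyp* genes, the tested *ugt* genes and all genes tested. Heat in wild-type called 15.4% of each family down against 4.19% of all genes, and the mutation at 20ºC called 0 members up.

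The member with the largest rise was *cyp-37B1* (WBGene00009226, chromosome V, 16278116 to 16280616). Its level was 1.68 and 0.977 CPM in the wild-type libraries at 20ºC and 53.6 and 62.4 CPM at 25ºC. In *mut-16* it was 1.69 and 0.946 CPM at 20ºC and 14.3 and 11 CPM at 25ºC. Every 25ºC library was above every 20ºC library, and the *mut-16* libraries at 25ºC stood between the wild-type libraries of 20ºC and those of 25ºC. The log2 fold change with heat was 5.41 ± 0.26 (SE; edgeR adjusted p = 9.6e-08) in wild-type, a 42.6-fold rise, and 3.31 ± 0.29 (adjusted p = 4.6e-06) in *mut-16*. At 25ºC *mut-16* was below wild-type by a log2 fold change of −2.20 ± 0.20 (adjusted p = 7.8e-06). *cyp-37A1*, the other gene of its subfamily, changed far less with heat in wild-type, at 0.52 ± 0.15 (adjusted p = 0.027). That call was lost without 4 of the 8 libraries, at adjusted p = 0.063 for replicate 2 of wild-type at 20ºC, 0.05 (just above the threshold) and 0.22 for replicates 1 and 2 at 25ºC, and 0.055 for replicate 2 of *mut-16* at 25ºC.

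Both *cyp-32* genes rose with heat. *cyp-32B1* (chromosome V, 2197997 to 2201415) had 11.6 and 13.1 CPM in wild-type at 20ºC, 35 and 36.4 in wild-type at 25ºC, 7.75 and 5.89 in *mut-16* at 20ºC and 16.1 and 15.2 in *mut-16* at 25ºC. None of these pairs of libraries overlapped another, with the order wild-type 25ºC, *mut-16* 25ºC, wild-type 20ºC, *mut-16* 20ºC from high to low. The log2 fold change was 1.53 ± 0.16 with heat in wild-type (edgeR adjusted p = 2.2e-05) and 1.21 ± 0.18 in *mut-16* (adjusted p = 0.00048). *cyp-32A1* rose by 1.55 ± 0.27 (adjusted p = 0.0011) and 1.75 ± 0.28 (adjusted p = 0.001).

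Among the *ugt* genes, *ugt-4* rose most with heat in wild-type, though from a low level, 0.459 and 0.266 CPM at 20ºC to 2.55 and 2.21 CPM at 25ºC. Its log2 fold change was 2.65 ± 0.46 (edgeR adjusted p = 0.001) in wild-type and 2.48 ± 0.47 (adjusted p = 0.0034) in *mut-16*. *ugt-54* went from 3.98 and 4.71 to 14.6 and 12.4 CPM in wild-type and from 3.68 and 3.42 to 10.2 and 8.04 CPM in *mut-16*, with no overlap between the temperatures in either genotype. Its log2 fold changes were 1.64 and 1.36. *ugt-51* rose by 1.27 and 1.42 and *ugt-30* by 1.24 and 2.09 in the same order. *ugt-9* rose by 1.24 in wild-type (adjusted p = 0.013), a call that was lost without wild-type 20ºC replicate 2 (adjusted p = 0.071) or wild-type 25ºC replicate 2 (adjusted p = 0.078).

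The member with the highest level per kb, *ugt-62* (WBGene00010904, chromosome III, 4537281 to 4540623), fell with heat in both genotypes. It had 218 and 236 CPM in wild-type at 20ºC and 66.3 and 59.4 CPM at 25ºC. In *mut-16* it had 227 and 200 CPM at 20ºC and 65.6 and 66 CPM at 25ºC. The libraries split by temperature with no overlap, and within a temperature those of the genotypes lay together. Heat gave a log2 fold change of −1.85 ± 0.13 (edgeR adjusted p = 7.2e-07) in wild-type and −1.70 ± 0.13 (adjusted p = 1.9e-06) in *mut-16*. The mutation itself gave −0.09 ± 0.13 at 20ºC (adjusted p = 0.73) and 0.07 ± 0.13 at 25ºC (adjusted p = 0.78). The similarly named *ugt-61*, on chromosome V, had a like pattern at a lower level, from 19.1 and 18.3 to 7 and 6.98 CPM in wild-type and from 21.7 and 18.4 to 9.16 and 8.19 CPM in *mut-16*, with log2 fold changes of −1.42 and −1.20.

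Among the *cyp* genes that fell, *cyp-35D1* had 4.67 and 3.73 CPM in wild-type at 20ºC and 0.637 and 0.353 CPM at 25ºC, a log2 fold change of −3.09 ± 0.52 (edgeR adjusted p = 0.0008). In *mut-16* it went from 4.17 and 3.78 to 1.64 and 0.447 CPM, at −1.94 ± 0.44 (adjusted p = 0.0097). The *mut-16* value rested on which library was kept. It was −3.14 (adjusted p = 0.0028) once replicate 1 of *mut-16* at 25ºC was left out, and −1.27 (adjusted p = 0.12) once replicate 2 was. Leaving out either 20ºC library of *mut-16* also lost the call, at an adjusted p of 0.06 for replicate 1 and 0.056 for replicate 2. The *cyp-14A* genes stand in a row on chromosome X, and 3 of the 4 were tested. *cyp-14A1* and *cyp-14A4* were called down in both genotypes, but from so few reads, 2 counts of each gene in either wild-type library at 25ºC, that no fold is given. *cyp-14A2* fell by 0.72 on the log2 scale in wild-type (adjusted p = 0.028). *cyp-14A5*, a member of the same subfamily on chromosome V, did not follow them. It had 7.88 and 6.48 CPM in wild-type at 20ºC, 8.81 and 9.01 at 25ºC, 6.95 and 5.82 in *mut-16* at 20ºC and 18.8 and 14.1 in *mut-16* at 25ºC, so that the last pair stood above all others. It rose with heat by 1.37 ± 0.21 (adjusted p = 0.00057) in *mut-16*, against 0.31 ± 0.21 (adjusted p = 0.36) in wild-type, and the difference between these 2 heat effects missed the threshold (adjusted p = 0.074).

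Of the 9 *cyp-13* genes tested, 4 fell and 0 rose with heat in wild-type, against 9.62% and 11.1% of all genes. *cyp-13B1* (chromosome X, 13406674 to 13409643) had 5.74 and 8.88 CPM in wild-type at 20ºC, 1.7 and 2.65 at 25ºC, 13 and 10.4 in *mut-16* at 20ºC and 7.77 and 8.56 in *mut-16* at 25ºC. The wild-type libraries at 25ºC were the low ones. Its log2 fold change was −1.72 ± 0.30 (edgeR adjusted p = 0.0011) with heat in wild-type and 1.89 ± 0.30 (adjusted p = 0.00065) for *mut-16* over wild-type at 25ºC, both of which use the wild-type libraries at 25ºC. Both *cyp-13A11* and *cyp-13A12* had fractional counts in every library, so their reads were split with similar transcripts. *cyp-13A12* fell by 1.69 on the log2 scale in wild-type (adjusted p = 0.0081, and 0.065 without wild-type 25ºC replicate 2). *cyp-13A11*, at −1.92 (adjusted p = 0.017), was less certain, with an adjusted p of 0.051 once wild-type 20ºC replicate 2 was left out. Its value was −1.46 (adjusted p = 0.14) or −2.75 (adjusted p = 0.029) once replicate 1 or 2 of wild-type at 25ºC was left out. *cyp-13A2*, at −0.93 (adjusted p = 0.014), missed the threshold when replicate 2 of wild-type at 20ºC (0.054) or replicate 1 (0.088) or 2 (0.067) at 25ºC was left out.

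The P450s chosen for known roles or as close paralogs include some that act in lipid chemistry. With heat, some of those chosen passed the test and others did not. *cyp-29A2*, of a subfamily that acts on polyunsaturated fatty acids, had 56.5 and 59.4 CPM in wild-type at 20ºC and 27.7 and 31.5 CPM at 25ºC, a log2 fold change of −0.97 ± 0.15 (edgeR adjusted p = 0.0004). In *mut-16* it had 48.3 and 39.2 CPM at 20ºC and 33.7 and 35.4 CPM at 25ºC, at −0.34 ± 0.15 (adjusted p = 0.16). The wild-type groups were set far apart, and the *mut-16* groups lay between them. *cyp-33E2*, an eicosanoid-forming P450 of the pharynx, had values of −0.38 in wild-type and 0.07 in *mut-16*, and *cyp-44A1*, a mitochondrial P450, −0.29 and −0.08, none of which passed the test. *cyp-33E1* fell in wild-type, at −0.81 (adjusted p = 0.013), and had −0.20 in *mut-16* (adjusted p = 0.58). *cyp-36A1* also fell in wild-type, at −0.88 (adjusted p = 0.05, just within the threshold), with −1.2 to −0.59 when 1 library was left out. *cyp-23A1*, at −0.71 and −0.14, and *cyp-42A1*, at −0.19 and −0.18, passed in neither genotype. *cyp-33E1* and *cyp-33E2* had fractional counts in some libraries, so part of their reads was shared. *cyp-31A2* and *cyp-31A3*, which are needed for the lipid barrier of the embryo, had −0.12 and 0.04 in wild-type. In *mut-16*, *cyp-31A2* went from 4.17 and 4.37 to 7.61 and 7.6 CPM, by 0.83 ± 0.25 (adjusted p = 0.049), and *cyp-31A3* had 0.57 ± 0.25 (adjusted p = 0.17). Both genes had fractional counts in some libraries, so part of their reads was shared with a similar transcript. The rise of *cyp-31A2* was lost when any *mut-16* library was left out, at an adjusted p of 0.16 and 0.17 for the 20ºC replicates and 0.22 and 0.2 for those of 25ºC, and the difference between its heat effects missed the threshold (adjusted p = 0.16). *cyp-25A2*, named only as the P450 with the highest level per kb, fell from 82.7 and 90.8 to 42.5 and 53.2 CPM in wild-type, at −0.86 ± 0.15 (adjusted p = 0.00093). It had fractional counts in every library, so its reads were split with similar transcripts.

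The second comparison asked for the effect of 25ºC in *mut-16*. Here 14 members were called up, 6 *cyp* and 8 *ugt* genes (13.5%, all genes 4.57%), and 7 were called down, 5 *cyp* and 2 *ugt* genes (6.73%, all genes 1.8%). Without a limit on the fold change, 25 rose (24%, all genes 7.71%) and 11 fell (10.6%, all genes 4.47%). The count of 7 down became 4 when replicate 2 of *mut-16* was left out, whether that of 20ºC or that of 25ºC. The median log2 fold change was 0.02 for *cyp* and 0.07 for *ugt* genes, with all genes at 0. The wild-type and *mut-16* heat comparisons have no library in common. The members past the adjusted p in both were 17 of those that rose, 81% of the wild-type and 68% of the *mut-16* list, and 11 of those that fell, 35.5% of the wild-type and 100% of the *mut-16* list. No member rose in one genotype and fell in the other at this threshold. The overlap over all genes tested was not counted. These shares therefore have no background, and whether they are particular to the members was not tested.

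Some *ugt* genes that rose in *mut-16* had a smaller value in wild-type. *ugt-41* had 4.97 and 6.98 CPM in *mut-16* at 20ºC and 22.5 and 19.9 CPM at 25ºC, a log2 fold change of 1.81 ± 0.20 (edgeR adjusted p = 3.9e-05). In wild-type it went from 14 and 12.8 to 25.4 and 20.3 CPM, at 0.76 ± 0.19 (adjusted p = 0.0098, and 0.11 without wild-type 25ºC replicate 1). The groups of 25ºC overlapped each other and those of 20ºC did not, and the difference between the heat effects was 1.04 ± 0.27 (adjusted p = 0.057). *ugt-43* went from 1.59 and 1.24 to 6.87 and 4.62 CPM in *mut-16*, at 2.03 ± 0.34 (adjusted p = 0.0013), against 0.95 ± 0.33 (adjusted p = 0.061) in wild-type, and the difference of 1.08 ± 0.48 missed the threshold (adjusted p = 0.24). *ugt-47*, among the *ugt* genes with the highest levels per kb, had 57.8 and 56.7 CPM in *mut-16* at 20ºC and 105 and 103 at 25ºC, and rose by 0.86 ± 0.14 (adjusted p = 0.00087). It rose in wild-type too, from 75.5 and 82.5 to 121 and 98.6 CPM, by 0.47 ± 0.14 (adjusted p = 0.024). That value was 0.32 to 0.61 with 1 library left out. The difference of 0.39 ± 0.19 between its heat effects missed the threshold (adjusted p = 0.29). Of the *cyp* genes, *cyp-35A3* rose in *mut-16* by 1.36 ± 0.21 (adjusted p = 0.00066), against 0.37 ± 0.18 (adjusted p = 0.18) in wild-type, and the difference of 0.99 ± 0.28 missed it too (adjusted p = 0.074).

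**Figure D3:**
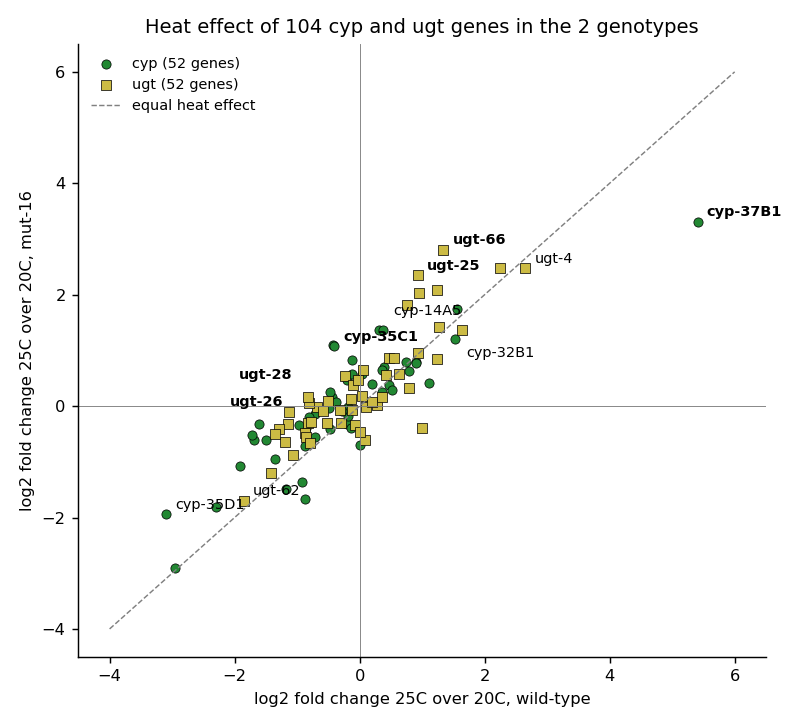
Log2 fold change of 25ºC over 20ºC in wild-type (horizontal) and in *mut-16* (vertical) for the 52 *cyp* genes (circles) and 52 *ugt* genes (squares) tested, with equal effects on the dashed line. Names in bold mark the 6 genes whose heat effect differed between the genotypes, among them *cyp-37B1* at 5.41 and 3.31, below the line, and *ugt-66* at 1.34 and 2.81, above it.

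The heat effect itself differed between the genotypes in 6 members (5.77%, all genes 3.08%), tested as the interaction of genotype and temperature at an adjusted p of at most 0.05. The heat effect was smaller in *mut-16* for 1 gene (0.962%, all genes 1.5%), *cyp-37B1*, by −2.11 ± 0.46 on the log2 scale (edgeR adjusted p = 0.025). It was higher in *mut-16* for the other 5 (4.81%, all genes 1.59%), *cyp-35C1*, *ugt-66*, *ugt-25*, *ugt-28* and *ugt-26*. Over all members tested the median difference was 0.25 for *cyp* and 0.27 for *ugt* genes against 0.01 for all genes. The count of 6 depended on single libraries. Leaving out replicate 1 of wild-type at 20ºC gave 10 genes. Leaving out replicate 1 or 2 of the 25ºC wild-type libraries gave 3 and 1, of the 20ºC *mut-16* libraries 2 and 3, and of the 25ºC *mut-16* libraries 2 and 2. The call of *cyp-37B1* was lost without wild-type 25ºC replicate 2 (adjusted p = 0.069), *mut-16* 20ºC replicate 1 (adjusted p = 0.14) or *mut-16* 25ºC replicate 2 (adjusted p = 0.087). Of the 6 genes, *cyp-35C1* alone kept its interaction call whichever of the 8 libraries was left out.

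*cyp-35C1* (WBGene00007362, chromosome V, 13896663 to 13898487) belongs to the *cyp-35* subfamily, whose members are induced by foreign compounds and, in part, linked to fat storage. It had 30.1 and 24.2 CPM in wild-type at 20ºC and 21.4 and 19.7 CPM at 25ºC. In *mut-16* it had 9.94 and 9.53 CPM at 20ºC and 21.4 and 19.7 CPM at 25ºC. The *mut-16* libraries at 20ºC were the low ones, and at 25ºC those of the genotypes had the same levels. The log2 fold change with heat was 1.08 ± 0.17 (edgeR adjusted p = 0.00072) in *mut-16* and −0.41 ± 0.16 (adjusted p = 0.088) in wild-type, a difference of 1.49 ± 0.23 (adjusted p = 0.0041). The mutation gave −1.49 ± 0.17 at 20ºC (adjusted p = 9e-05) and 0.00 ± 0.16 at 25ºC (adjusted p = 0.99), from the same libraries.

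*ugt-66* (chromosome III, 6192116 to 6194580) had 11.9 and 8.53 CPM in wild-type at 20ºC, 25 and 27 at 25ºC, 3.08 and 4.8 in *mut-16* at 20ºC and 31.2 and 25.5 in *mut-16* at 25ºC. The *mut-16* libraries were lowest at 20ºC and overlapped those of wild-type at 25ºC. It rose with heat by 1.34 ± 0.21 (edgeR adjusted p = 0.00043) in wild-type and by 2.81 ± 0.23 (adjusted p = 2.8e-06) in *mut-16*, and the difference was 1.47 ± 0.31 (adjusted p = 0.022). The interaction call was lost when any of 5 libraries was left out, replicate 1 (adjusted p = 0.075) or 2 (0.063) of wild-type at 25ºC, replicate 1 of *mut-16* at 20ºC (0.082), and replicate 1 (0.12) or 2 (0.05, just above the threshold) of *mut-16* at 25ºC.

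The other 3 genes, *ugt-25*, *ugt-26* and *ugt-28*, are neighbours on chromosome I, in a run of 4 *ugt* genes from 4721131 to 4735276, on the same strand. The remaining gene of the run, *ugt-27*, had at most 7 counts in a library and was not tested. *ugt-25* had 8.34 and 7.81 CPM in wild-type at 20ºC, 17.3 and 13.7 at 25ºC, 4.37 and 4.07 in *mut-16* at 20ºC and 24.1 and 19 in *mut-16* at 25ºC. It rose with heat in both genotypes, by 0.93 ± 0.19 (edgeR adjusted p = 0.0038, and 0.057 without wild-type 25ºC replicate 1) in wild-type and by 2.35 ± 0.21 (adjusted p = 4.7e-06) in *mut-16*. *ugt-26* and *ugt-28* moved in another way, falling with heat in wild-type alone by the test. *ugt-26* had 82.6 and 96.4, 48.6 and 53.5, 95 and 78.5, and 89.9 and 91.3 CPM in the same order of groups, so that only the wild-type libraries at 25ºC stood apart. *ugt-28* had 22.3 and 28.9, 13.9 and 14.8, 16.7 and 17.8, and 20.9 and 18 CPM. Both had fractional counts in some libraries, so part of their reads was shared with a similar transcript.

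The differences in heat effect were 1.42 ± 0.28 for *ugt-25* (edgeR adjusted p = 0.018), 0.87 ± 0.20 for *ugt-26* (adjusted p = 0.033) and 1.00 ± 0.24 for *ugt-28* (adjusted p = 0.04). All 3 calls were fragile. For *ugt-25* the adjusted p was 0.069 when replicate 2 of wild-type at 25ºC was left out, 0.054 and 0.091 for replicates 1 and 2 of *mut-16* at 20ºC, and 0.12 for replicate 1 of *mut-16* at 25ºC. For *ugt-26* it was 0.06 when replicate 2 of wild-type at 20ºC was left out, 0.13 and 0.084 for both at 25ºC, 0.1 for replicate 2 of *mut-16* at 20ºC, and 0.16 and 0.17 for both at 25ºC. The call of *ugt-28* was lost without any library except wild-type 20ºC replicate 1, with adjusted p of 0.068 to 0.23.

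The third comparison asked what the mutation does at 20ºC. It shares its *mut-16* libraries with the heat comparison in *mut-16* and its wild-type libraries with that in wild-type. All members called went down, 6 *cyp* and 2 *ugt* genes (7.69%, all genes 3.03%). The 0 members called up by edgeR (0%, all genes 1.53%) were 3 at an unadjusted p under 0.05 and 0 with DESeq2. The count of 0 became 2 when replicate 2 of wild-type at 20ºC was left out, and 1 for replicate 1, for either wild-type 25ºC replicate or *mut-16* 20ºC replicate 1. Without a limit on the fold change, 17 fell (16.3%, all genes 5.75%) and 2 rose (1.92%, all genes 2.68%). Those 2, *ugt-65* at 0.61 and *cyp-13A2* at 0.75 on the log2 scale, were looked up after the count was known. The rise of *cyp-13A2* was lost without 6 of the 8 libraries, at adjusted p of 0.059 to 0.41, and without *mut-16* 20ºC replicate 2 it was 0.36. The median log2 fold change was −0.31 for *cyp* genes, with 38 of 52 below zero, and −0.16 for *ugt* genes, with 36 of 52 below zero, against −0.05 for all genes.

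The genes called down at 20ºC were mostly of the *cyp-35*, *cyp-33* and *cyp-34* subfamilies. *cyp-35A2* (chromosome V, 7362319 to 7364182), a P450 linked to fat storage, had 88 and 74 CPM in wild-type at 20ºC, 73 and 76.2 at 25ºC, 29.9 and 32 in *mut-16* at 20ºC and 45.3 and 47.4 in *mut-16* at 25ºC. Each *mut-16* library was below every wild-type one. The difference of *mut-16* from wild-type was −1.39 ± 0.14 on the log2 scale (edgeR adjusted p = 4.2e-05) at 20ºC and −0.69 ± 0.14 (adjusted p = 0.0032, and 0.073 without *mut-16* 25ºC replicate 1) at 25ºC. Its neighbour *cyp-35A1*, with 1 to 4 counts a library, had fractional counts in all libraries, as did *cyp-35A2*, so their reads are partly shared. *cyp-35A3* had 10.3 and 9.95, 13.3 and 12.8, 3.18 and 3.49, and 7.85 and 9.31 CPM in the same order, again with *mut-16* at 20ºC lowest, and fell by 1.59 on the log2 scale at 20ºC (adjusted p = 0.00031). *cyp-35A5*, at −0.63 (adjusted p = 0.11), and *cyp-35A4*, at −0.66 (adjusted p = 0.5), did not pass the test. In all, 3 of the 8 *cyp-35* genes tested fell at 20ºC and 0 rose, against 5.75% and 2.68% of all genes.

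*cyp-34A9* (chromosome V, 3968134 to 3970540) was the member lowered most by the mutation at 20ºC, and it was lowered to a like extent at both temperatures. It had 7.42 and 7.73 CPM in wild-type at 20ºC, 9.76 and 11.1 at 25ºC, 2.19 and 2.26 in *mut-16* at 20ºC and 2.86 and 2.9 in *mut-16* at 25ºC. The libraries split by genotype with a wide gap. Its log2 fold change between genotypes was −1.76 ± 0.24 (edgeR adjusted p = 0.00038) at 20ºC and −1.86 ± 0.22 (adjusted p = 7.8e-05) at 25ºC, while heat gave 0.47 (adjusted p = 0.12) and 0.37 (adjusted p = 0.4). It stands in a run of 10 *cyp-34* and *cyp-35* genes, 5 of which were tested, and was the only one of the 5 to pass the test for the mutation.

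Other members were lower in *mut-16* at 20ºC. *ugt-41* had 14 and 12.8 CPM in wild-type against 4.97 and 6.98 in *mut-16*, with no overlap, and fell by 1.15 on the log2 scale (edgeR adjusted p = 0.0034). *cyp-33D3* had 8.8 and 5.33 against 3.87 and 2.11 CPM, at −1.28 (adjusted p = 0.027), a call lost without wild-type 20ºC replicate 1 (adjusted p = 0.15) or *mut-16* 20ºC replicate 2 (0.31). *cyp-33E3*, at −1.47 (adjusted p = 0.043), was lost without any library except *mut-16* 20ºC replicate 1, and its value was −0.94 without *mut-16* 20ºC replicate 2. It had fractional counts in some libraries, so part of its reads was shared with a similar transcript. *cyp-32B1* fell by 0.87 on the log2 scale (adjusted p = 0.0094, and 0.16 without *mut-16* 20ºC replicate 2). *cyp-35B1*, which is known as a gene activated by DAF-16 in long-lived insulin-signalling mutants, gave 0.36 (adjusted p = 0.4) at 20ºC. It fell with heat in both genotypes, from 8.25 and 7.64 to 2.78 and 2.23 CPM in *mut-16*, by 1.66 on the log2 scale (adjusted p = 0.00074), and from 5.59 and 6.84 to 2.76 and 3.89 CPM in wild-type, by 0.88 (adjusted p = 0.028). The wild-type call was lost when replicate 2 of 20ºC (adjusted p = 0.11) or replicate 1 of 25ºC (0.18) was left out.

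**Figure D4:**
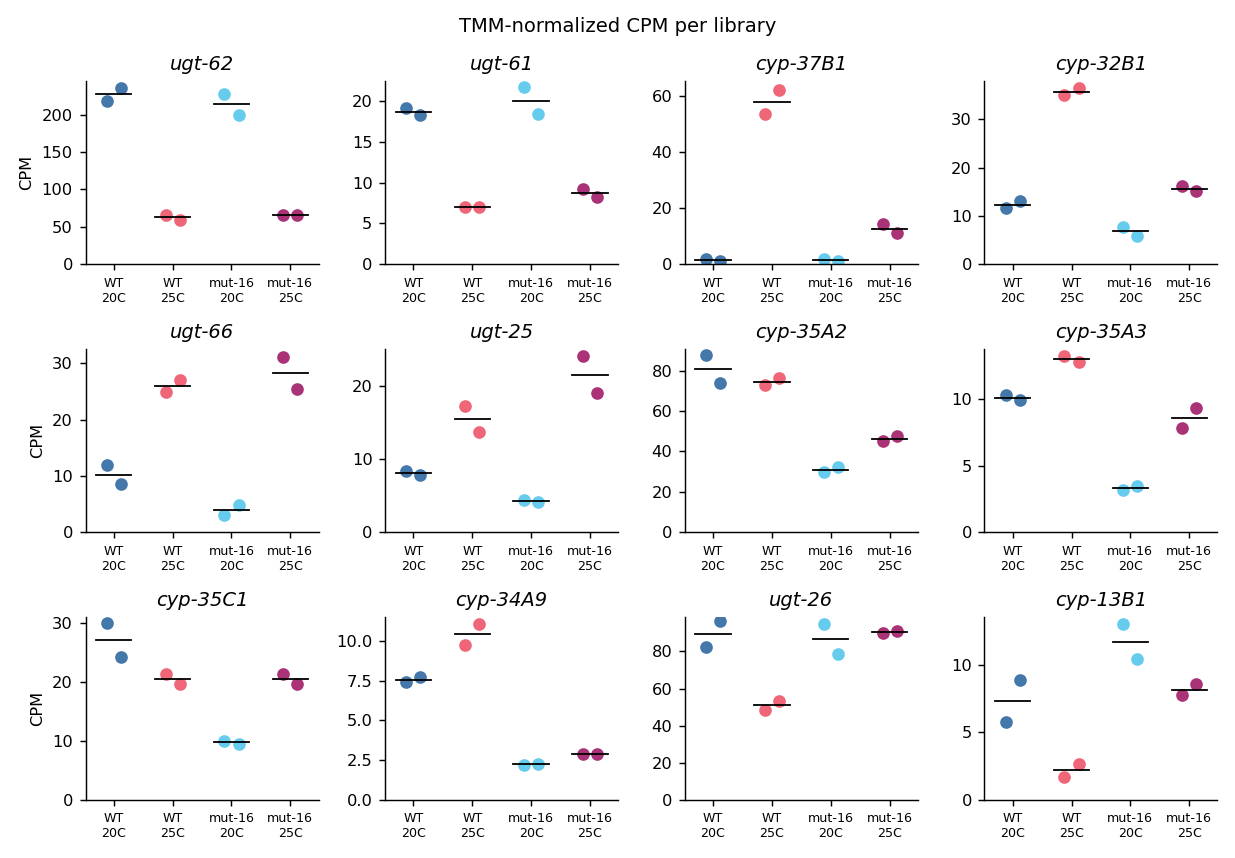
TMM-normalized CPM (vertical axis, from 0) of 12 members in each library (points), with group means as lines, for the 4 groups of genotype and temperature. *ugt-62* splits by temperature, *cyp-34A9* and *cyp-35A2* by genotype, and *cyp-35C1* is low in *mut-16* at 20ºC alone, at 9.94 and 9.53.

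The fourth comparison was the mutation at 25ºC, which shares libraries with both heat comparisons. Here 5 members were called up, 4 *cyp* genes and 1 *ugt* gene (4.81%, all genes 3.16%), and 4 *cyp* genes were called down (3.85%, all genes 8.65%). No *ugt* gene was called down by edgeR, at an unadjusted p under 0.05 or with DESeq2 (0 each). The count of 5 up became 3 without either wild-type 25ºC replicate. Without a limit on the fold change, 13 members rose (12.5%, all genes 7.68%) and 12 fell (11.5%, all genes 12.5%), so the share that fell was close to that of all genes. By family, 10 *cyp* (19.2%) and 2 *ugt* genes (3.85%) fell and 5 *cyp* (9.62%) and 8 *ugt* genes (15.4%) rose, and the difference between the families was not tested. The median log2 fold change was −0.05 for *cyp* and 0.21 for *ugt* genes, with 35 of 52 *ugt* genes above zero, against a median of 0 for all genes. Scaling by library total moved the median of all genes to 0.18 and gave 9 up and 3 down, so the share of called members that were up was 55.6% with TMM and 75% with totals.

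The members lower in *mut-16* at 25ºC were *cyp-37B1*, *cyp-34A9*, *cyp-32B1* and *cyp-33C3*. *cyp-32B1*, whose values are given above, was lower by a log2 fold change of −1.19 ± 0.16 (edgeR adjusted p = 0.00022). *cyp-33C3* had 3.82 and 4.33 CPM in wild-type against 1.55 and 2.46 in *mut-16*, at −1.01 (adjusted p = 0.039). Its call was lost without 6 of the 8 libraries, with adjusted p of 0.052 to 0.32, the highest without *mut-16* 25ºC replicate 1. *cyp-33C3* lies in a run of 5 *cyp-33C* genes on chromosome V, from 2236140 to 2252591. Of its 4 tested genes, 3 rose with heat in wild-type (all genes 11.1%) and 3 were lower in *mut-16* at 25ºC (all genes 12.5%), *cyp-33C3*, *cyp-33C4* and *cyp-33C5* in each case. All 3 had fractional counts in every library, so their reads were split with similar transcripts and they are not independent counts. The rise of *cyp-33C3* was lost when replicate 2 of wild-type at 20ºC (adjusted p = 0.12) or replicate 1 (0.07) or 2 (0.12) at 25ºC was left out.

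The members higher in *mut-16* at 25ºC were *cyp-13A10*, *cyp-13B1*, *cyp-25A3*, *cyp-33C8* and *ugt-16*, and 4 of these, all but *cyp-13A10*, had fallen with heat in wild-type. The reads of *cyp-25A3* were split with similar transcripts, as it had fractional counts in every library. *ugt-16* had 24.3 and 17.1 CPM in wild-type at 20ºC, 9.02 and 7.95 at 25ºC, 21.7 and 24.7 in *mut-16* at 20ºC and 17.8 and 16.9 in *mut-16* at 25ºC. The wild-type libraries at 25ºC were the low ones. It was higher in *mut-16* at 25ºC by 1.03 ± 0.20 (edgeR adjusted p = 0.0026), and the heat effect was −1.29 ± 0.20 (adjusted p = 0.00039) in wild-type and −0.42 ± 0.18 (adjusted p = 0.15) in *mut-16*. *cyp-25A3* was higher by 1.42 (adjusted p = 0.0072, and 0.082 without wild-type 25ºC replicate 2) and *cyp-33C8* by 1.14 (adjusted p = 0.0092, and 0.089 without wild-type 25ºC replicate 1 or 0.068 without *mut-16* 25ºC replicate 2). *cyp-13A10*, at 1.92 (adjusted p = 0.017), had only 0.318 and 0.442 CPM in wild-type at 25ºC. Its call was lost when wild-type replicate 1 (adjusted p = 0.11), wild-type replicate 2 (0.075) or *mut-16* replicate 1 (0.16) of 25ºC was left out.

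**Figure D5:**
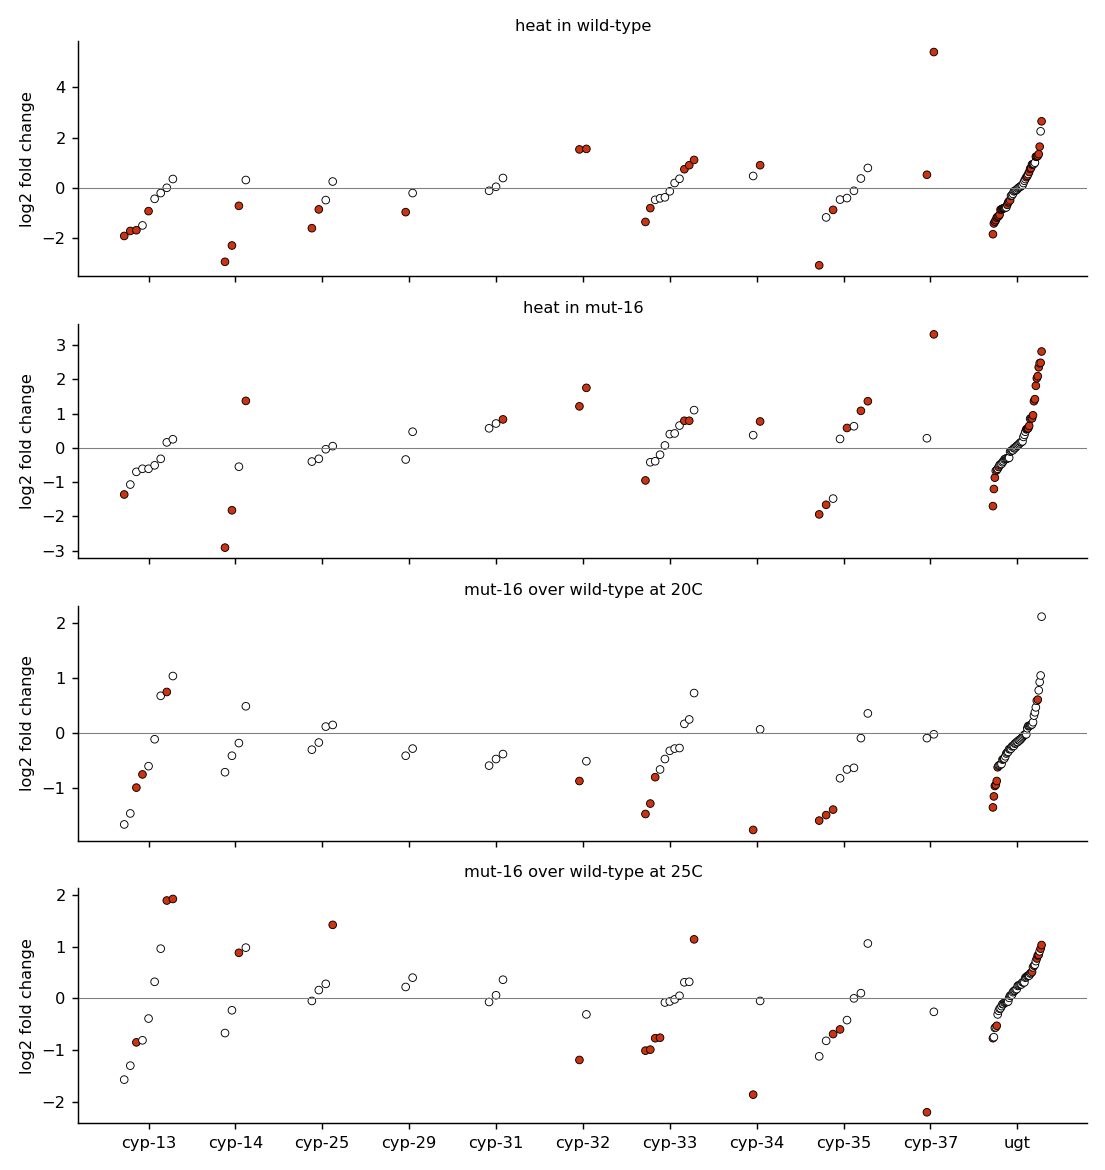
Log2 fold change of each tested member by *cyp* subfamily (those with at least 2 tested genes) and for all 52 *ugt* genes, in the 4 comparisons, with genes at an adjusted p of at most 0.05 filled red and the others open. The *cyp-35* genes that passed at 20ºC were all lower in *mut-16*, 3 of 8, and both *cyp-32* genes rose with heat in both genotypes.

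Other genes of small-molecule metabolism were counted beside the members. Of all genes tested, 11.1% rose and 9.62% fell with heat in wild-type, 7.71% and 4.47% with heat in *mut-16*, and 7.68% and 12.5% were higher and lower in *mut-16* at 25ºC, which is the background for the counts that follow. Of the P450 electron donors, *emb-8*, the reductase, had log2 fold changes of −0.22 to 0.22 over the 4 comparisons, none past the test. *cytb-5.1*, a cytochrome b5, had 136 and 202 CPM in wild-type at 20ºC and 77 and 67.3 CPM at 25ºC, and fell with heat in wild-type by 1.23 on the log2 scale (edgeR adjusted p = 0.00036). In *mut-16* at 25ºC it had 109 and 109 CPM, higher than in wild-type by 0.60 (adjusted p = 0.035). The other cytochrome b5 gene listed, *cytb-5.2*, did not share this fall. It had 142 and 192 CPM in wild-type at 20ºC and 173 and 164 CPM at 25ºC, at 0.01 (adjusted p = 0.98). Its log2 fold changes were −0.14 to 0.12 over the 4 comparisons, none past the test. Of the steroid hormone genes, 4 of 5 were tested. *daf-9* had 2.12 to 3.76 CPM and passed no test, whereas *dhs-16* and *daf-36*, which act in the same pathway, were higher in *mut-16* at 25ºC by 0.89 (adjusted p = 0.027) and 0.82 (adjusted p = 0.014). Of 35 glutathione S-transferase genes tested, 8 rose and 3 fell with heat in wild-type, and 4 rose and 3 fell in *mut-16*. Of 27 short-chain dehydrogenase genes of the *dhs* class, 1 rose and 6 fell with heat in wild-type, and 6 were higher and 2 lower in *mut-16* at 25ºC. Of 21 ABC transporter genes of the *pgp* and *mrp* classes, which pump conjugated compounds out of cells, 0 rose and 5 fell with heat in wild-type, while 6 were higher and 0 lower in *mut-16* at 25ºC. None of the 10 regulators listed passed the test in any of the 4 comparisons, among them *nhr-8*, *mdt-15*, *skn-1* and *ahr-1*, which are known to control such genes.

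Markers of tissues and stage also moved between the groups, and their part in the results was not tested. All 7 intestine markers, among them *elt-2* and *ges-1*, were tested and summed to 2498.5 to 2912.6 CPM in wild-type at 20ºC, 2954.1 to 3319.9 in wild-type at 25ºC, 3563.6 to 3653.3 in *mut-16* at 20ºC and 2878.4 to 2984.7 in *mut-16* at 25ºC. The intestine sum was thus highest in *mut-16* at 20ºC. By gene, 1 of the 7 was higher and 0 lower in *mut-16* at 20ºC by the test, with a median log2 fold change of 0.16. The 6 sperm markers summed to 100.3 to 137.3, 145.4 to 189.4, 65.4 to 84.7 and 37.1 to 41.2 CPM in the same order, with all 6 lower in *mut-16* at 25ºC by the test. The 4 oocyte markers had 79.4 to 129, 90.9 to 102.4, 52.9 to 61.3 and 112.6 to 116.7 CPM, with all 4 rising with heat in *mut-16*. The 7 moult and stage markers had 1179 to 1181.4, 823.8 to 1051.7, 805.5 to 1143 and 740.6 to 893.2 CPM, with 3 falling and 1 rising with heat in wild-type. The 5 epidermis markers had 3153.3 to 3657.1, 5060.5 to 5265.1, 2490.1 to 2699.6 and 4000 to 4042.7 CPM, so that their sum was higher at 25ºC in both genotypes. By gene, 3 rose and 2 (*dpy-7* and *bli-1*) fell with heat in wild-type, and 3 rose and 0 fell in *mut-16*. The 4 body-wall muscle markers had 4170.9 to 4491.6, 3991.2 to 4158.8, 5509.5 to 6730.8 and 4479.6 to 4883 CPM, and the 4 neuron markers 150.3 to 158.2, 153 to 177.8, 171.6 to 178.2 and 180.3 to 181.2 CPM. The muscle sums were highest in *mut-16* at 20ºC, and no neuron marker passed a test.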

How the data were processed

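According to the study's methods, mRNA libraries were trimmed with cutadapt and quantified with Salmon on WS258 transcripts, and the authors deposited expected counts per gene, 1 library a file, with no scaling for depth or length. HISAT2 is also named in the submitters' processing notes. All value columns were used (columns not used: 0). Of 46453 lines, 46260 names matched the Ensembl release 115 annotation of WBcel235 and 189 did not (at most 0.0587% of a library), and 4 names are repeated with 0 counts. Coordinates come from that annotation.

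Counts were rounded, filtered with filterByExpr by group (minimum count 10, minimum total 15), scaled by TMM (factors 0.858 to 1.1) and fitted for 13972 genes with edgeR 4.0.16 (quasi-likelihood, 4 groups, no block) in R 4.3.3. The fit gave a common dispersion of 0.0153 (coefficient of variation 0.124). Benjamini-Hochberg adjustment ran within a contrast over all genes tested. Family sums were compared by exact permutation over libraries. With 2 libraries a group the spread of a gene is borrowed largely from other genes, and p-values cover the spread between these biological replicates. Figures used matplotlib 3.10.9.

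Replicate numbers did not pair the libraries. Correlations of same-numbered deviations lay between −0.16 and 0.07, so the replicate block was an alternative only. The other alternatives were DESeq2 1.42.0, RLE and total-count scaling, other filters, fits of only the groups compared, and leaving out each library.

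Named genes were members with known roles or close paralogs, those with an interaction, and the 5 highest per kb of each family. Up to 8 called members per contrast and direction with the largest change were also named. For these the log2 of the mean CPM was at least 0 and the libraries compared did not overlap. A few others are named as the subfamily or run they belong to. The members and lists were chosen with earlier results of these data known. Small RNA libraries were not used here.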

Additional observations from a re-analysis of the deposited data

Results flagged for a closer look

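The heat effect differed between the genotypes, by the interaction test of genotype and temperature (edgeR quasi-likelihood, adjusted p of at most 0.05), for 6 genes. The heat effect in *mut-16* minus that in wild-type, on the log2 scale, was 1.49 for *cyp-35C1*, 1.47 for *ugt-66*, 1.42 for *ugt-25*, 1.00 for *ugt-28* and 0.87 for *ugt-26*. It was −2.11 for *cyp-37B1*. Of these, *cyp-35C1* alone kept the call without each of the 8 libraries in turn, and with the replicate block the adjusted p was 0.058 for *ugt-26* and 0.065 for *ugt-28*.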

How the results depend on the processing

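With total-count scaling, 28 members were called down by heat in wild-type, 9 up by the mutation at 25ºC and 13 had an interaction. The log2 ratios of the *cyp* sums were then −0.28 for heat in wild-type, −0.01 for heat in *mut-16* (a turn of sign from 0.06) and −0.08 for the mutation at 25ºC, and those of the *ugt* sums −0.49 for heat in wild-type and 0.35 for the mutation at 25ºC. RLE scaling gave *cyp* sums of 0.01 for heat in *mut-16* and −0.31 for the mutation at 20ºC. At least 10 counts in every library left 4 members down by heat in *mut-16* and 1 up by the mutation at 20ºC. No filter beyond 1 count gave 2 up by the mutation at 20ºC and 14 interactions, and fitting only the groups compared gave 1 up at 20ºC. The cause of these shifts was not tested.

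Without 1 library at a time, heat in wild-type called 8 to 13 members up and 11 to 17 down, heat in *mut-16* 14 to 15 up and 4 to 7 down, the mutation at 20ºC 0 to 2 up and 6 to 9 down, and the mutation at 25ºC 3 to 5 up and 3 to 4 down, with 1 to 10 interactions. The *cyp* sums then ranged from −0.12 to 0.05, 0.04 to 0.07, −0.36 to −0.33 and −0.34 to −0.17 in the order of the comparisons, and the *ugt* sums from −0.28 to −0.2, 0.02 to 0.15, −0.21 to −0.09 and 0.14 to 0.21. With the replicate block the counts were 10 and 16, 14 and 7, 0 and 7, and 5 and 3, with 4 interactions. Of 260 values of single genes, DESeq2 took 13 out of the call and the block 9, and none of these alternatives turned a called direction.

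Each group has 2 libraries. Genes near the filter carry wide errors, members with shared reads cannot be fully separated, and temperature is tied to harvest time.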
